A study of Mus musculus with 16 samples.

Results

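The genes of the cell division cycle that are read in liver as markers of replication, mitosis and hepatocyte ploidy were followed across 16 liver RNA-seq libraries. They were chosen by name as 36 symbols of the gene count table, which has 41585 rows, and all 36 had a row. Of these, 7 act in G1/S control (Ccnd1, Ccnd3, Ccne1, Ccne2, Cdk2, Cdkn1a and E2f1), E2f7 and E2f8 are the atypical E2F repressors, 10 act in DNA replication (Mcm2 to Mcm7, Pcna, Rrm1, Rrm2 and Tyms), 10 are mitotic kinases, cyclins and checkpoint genes (Ccna2, Ccnb1, Ccnb2, Cdk1, Aurka, Aurkb, Plk1, Bub1, Bub1b and Birc5) and 7 act on the spindle, the chromosomes and cytokinesis (Mki67, Top2a, Cenpf, Anln, Prc1, Kif11 and Cit). After a filter on low counts 26 of the 36 could be tested, among 13470 genes in all.

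The livers came from C57BL/6 mice, and every group received a diet with 60% fat for 16 weeks. The groups were hCYP2B6-Tg females, Cyp2b-null females, hCYP2B6-Tg males and Cyp2b-null males, with 4 libraries each. The labels name the genotypes and give neither the promoter of the human CYP2B6 transgene nor the Cyp2b genes removed in Cyp2b-null mice, and they give no wild-type group, no age and no time of day. They do not state that each library is a separate animal, so p-values measure the spread between libraries, which may be partly technical.

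Hepatocytes in the adult liver rarely divide, and many are polyploid because cells replicated their DNA and then did not complete cytokinesis. E2F1 and related activators switch on replication genes when cyclin D and cyclin E kinases release them from RB, whereas E2F7 and E2F8 repress the same promoters later in the cycle. In mouse liver E2F7 and E2F8 favour polyploidy and E2F1 opposes it. Genes of mitosis are controlled by a further promoter element, the cell cycle genes homology region (CHR), often together with CCAAT boxes.

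Among the promoters, the E2F and CHR letters differed in frequency between role lists, while CCAAT boxes were common in replication and mitotic lists alike. RefSeq promoters (GRCm38.p6, 250 bases before to 50 after a start) were found for 31 of the 36 genes, and both strands were searched. For these genes a match in any promoter window of the gene was counted. The promoters of the mouse genome were taken as 1 window per symbol, so the comparisons with them can favour the 31 genes. An E2F element (TTTGGCGC, TTTCCCGC, TTTCGCGC or TTTGCCGC) was present for 7 of 31 genes (22.6%), against 2.32% of 27025 promoters of the mouse genome. It was in 4 of 9 replication promoters (Mcm3, Mcm5, Mcm6 and Mcm7) and 1 of 5 G1/S promoters (Cdk2). Of the mitotic kinase, cyclin and checkpoint genes 1 of 8 promoters had it (Cdk1). It was in 0 of 7 promoters of the spindle, chromosome and cytokinesis genes. The CHR letters TTTGAA were in 6 of those 7 and in 5 of 8 promoters of the mitotic kinase, cyclin and checkpoint genes, but in 1 of 9 replication promoters, against 18.1% of all promoters. A CCAAT box was in 24 of 31 (77.4%), against 37.9% of all. By role it was in 8 of 9 replication and 2 of 5 G1/S promoters. It was in 7 of 8 promoters of the mitotic kinase, cyclin and checkpoint genes and 5 of 7 of the spindle, chromosome and cytokinesis genes. The motifs do not overlap each other in the windows printed here. The following windows, with matches to either strand in capitals, show both repressor genes and 1 example each of the replication and the mitotic pattern, chosen after the matches were seen.
E2f8: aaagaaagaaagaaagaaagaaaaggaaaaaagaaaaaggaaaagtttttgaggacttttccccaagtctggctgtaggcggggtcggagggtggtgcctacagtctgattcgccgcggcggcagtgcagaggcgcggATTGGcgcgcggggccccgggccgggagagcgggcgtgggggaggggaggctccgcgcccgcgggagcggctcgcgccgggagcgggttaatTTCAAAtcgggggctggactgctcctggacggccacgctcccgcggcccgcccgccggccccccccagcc
E2f7: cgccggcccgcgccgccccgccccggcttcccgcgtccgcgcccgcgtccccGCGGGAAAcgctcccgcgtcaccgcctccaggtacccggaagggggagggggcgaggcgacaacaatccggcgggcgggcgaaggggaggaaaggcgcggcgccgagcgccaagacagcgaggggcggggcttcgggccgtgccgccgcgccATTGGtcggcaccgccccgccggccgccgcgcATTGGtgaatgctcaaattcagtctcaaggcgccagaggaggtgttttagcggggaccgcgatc
Mcm3: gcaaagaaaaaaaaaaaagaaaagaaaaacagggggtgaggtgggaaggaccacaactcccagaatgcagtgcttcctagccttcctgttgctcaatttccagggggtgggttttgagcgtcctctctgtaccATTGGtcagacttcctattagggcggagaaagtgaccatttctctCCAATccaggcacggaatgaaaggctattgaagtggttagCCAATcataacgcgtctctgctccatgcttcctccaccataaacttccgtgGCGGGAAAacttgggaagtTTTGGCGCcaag
Ccnb2: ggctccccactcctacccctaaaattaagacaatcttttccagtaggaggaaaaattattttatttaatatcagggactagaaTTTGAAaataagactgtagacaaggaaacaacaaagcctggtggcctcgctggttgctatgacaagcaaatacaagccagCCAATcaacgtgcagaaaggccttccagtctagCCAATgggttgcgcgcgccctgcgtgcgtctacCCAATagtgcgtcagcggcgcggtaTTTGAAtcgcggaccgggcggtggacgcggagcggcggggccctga
The E2f8 window (chr7:48881547-48881846, minus strand) starts from a RefSeq start inside the annotated gene and holds a CCAAT box and a CHR match. The E2f7 window (chr10:110745189-110745488, plus strand) holds an E2F element and 2 CCAAT boxes. In Mcm3 (chr1:20820263-20820562, minus strand) 2 E2F elements and 3 CCAAT boxes were found, and in Ccnb2 (chr9:70421505-70421804, minus strand) 2 CHR matches and 3 CCAAT boxes. A match describes the letters only.

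Library totals ran from 5584587 to 9672708 counts, and the sex genes of 16 of 16 libraries matched the label. Levels are in CPM, counts divided by the TMM-scaled library size, and 3 counts, the limit that a count of 0 allows, correspond to 0.313 to 0.542 CPM (counting error only). Hepatocyte markers were abundant, with Alb at 10715358 counts in all. Most cell cycle genes were scarce. Among the 36, Ccnd1 was the most abundant per length, at a mean level of 17.4 CPM per kb of exon, followed by Pcna (5.002), Ccnd3 (3.06) and E2f8 (2.85). Kif11, a spindle motor, was listed at 0 in 16 of 16 libraries, and Ccnb1, cyclin B1, had 11 counts in all. In the role list of Kif11, Mki67 had 441 counts and Top2a 277. Processed pseudogenes overlap Kif11 on the same strand (AC137605.4) and on the other (AC137605.6). Whether its 0 reflects the RNA level or the counting was not tested, and its row adds nothing to the mitotic sums below. Pcna, the polymerase clamp, is uncertain because a pseudogene row, Pcna-ps2, holds 1844 counts against 1416 for Pcna.

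E2f8 was the 1 gene of the 26 tested whose difference between hCYP2B6-Tg and Cyp2b-null livers was itself different, past the threshold, between females and males. Among females its mean level was the higher one in hCYP2B6-Tg livers, and among males it was the lower one there. E2f8 (chromosome 7, 48866429 to 48882073, GRCm38.p6) encodes a repressor of replication genes. In hCYP2B6-Tg females 1, 2, 4 and 5 its level was 14.3, 21.9, 22.4 and 22.0 CPM, against 19.1, 9.67, 9.67 and 6.98 CPM in Cyp2b-null females 1, 3, 4 and 5. In hCYP2B6-Tg males 2 to 5 it was 11.1, 7.54, 9.68 and 11.5 CPM, against 15.7, 21.9, 22.6 and 21.9 CPM in Cyp2b-null males 1 to 4. The male groups did not overlap, while in females Cyp2b-null 1 lay above hCYP2B6-Tg 1 and the other 3 hCYP2B6-Tg libraries lay above all 4 Cyp2b-null ones. The means were 20.1 ± 3.93 CPM in hCYP2B6-Tg females, 11.4 ± 5.34 CPM in Cyp2b-null females, 9.97 ± 1.80 CPM in hCYP2B6-Tg males and 20.5 ± 3.22 CPM in Cyp2b-null males (SD, n = 4 each). So hCYP2B6-Tg females and Cyp2b-null males were at one level and the other 2 groups near a lower one.

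**Figure D1:**
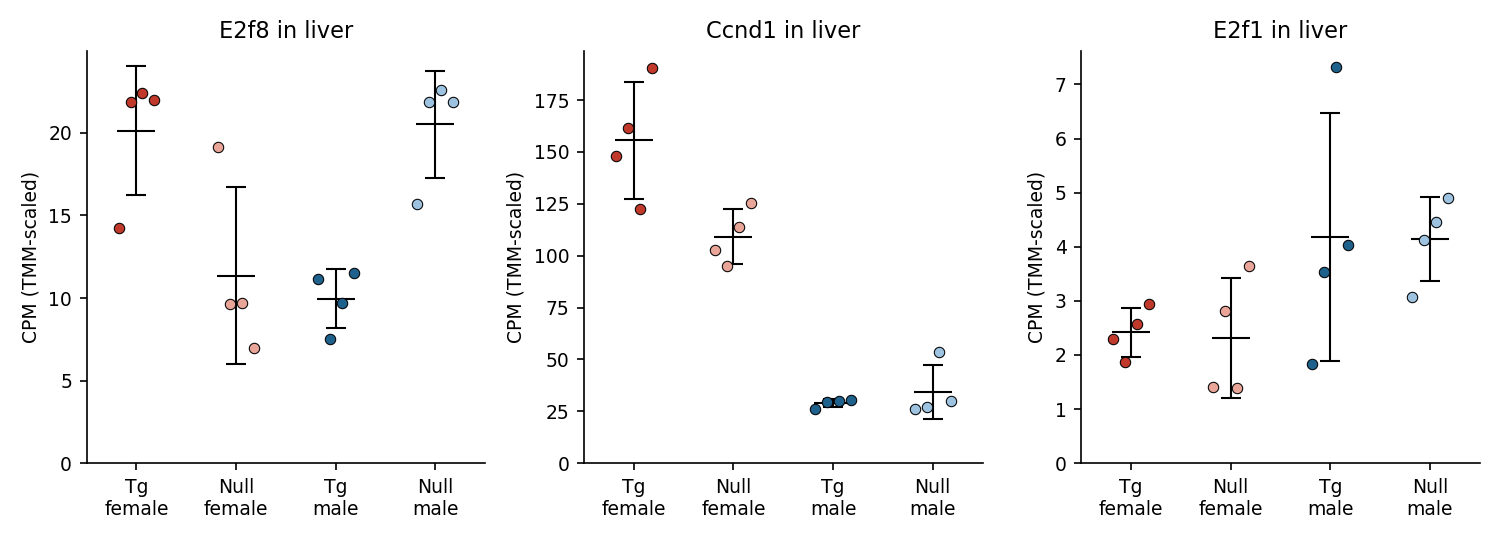
Levels of E2f8, Ccnd1 and E2f1 in CPM (linear vertical axes) in each of 4 liver libraries per group, with the mean (horizontal bar) and SD (whiskers); Tg is hCYP2B6-Tg and Null is Cyp2b-null. E2f8 averages 20.1 CPM in Tg females and 20.5 CPM in Null males but 11.4 CPM in Null females and 9.97 CPM in Tg males, and every female library lies above every male library for Ccnd1.

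The difference of the log2 fold changes of E2f8, females minus males, was 1.92 ± 0.33 (standard error; edgeR quasi-likelihood test, adjusted p = 0.0445). Of 26 members tested, 1 was called in this comparison, where 0.0445% of all 13470 genes were. The call is close to the threshold: it was lost with an earlier version of the same test (adjusted p = 0.0539, an alternative chosen after seeing the data), with no filter on low counts (0.121), with library totals as the only scaling (0.0506) and on leaving out each of 12 of the 16 libraries (up to 0.170). The call was also lost in an edgeR fit with the replicate number as a block (adjusted p = 0.201). It was kept without hCYP2B6-Tg female 1, Cyp2b-null female 1, Cyp2b-null female 5 or Cyp2b-null male 1, and the difference stayed between 1.72 and 2.24 in all 16 such fits. By sex, the log2 fold change of E2f8 was 0.87 ± 0.23 in females (adjusted p = 0.448) and -1.04 ± 0.24 in males (adjusted p = 0.134), so neither sex passed alone. Without Cyp2b-null female 1 both passed, at 1.20 in females (adjusted p = 0.0252) and -1.04 in males (0.0129), and in males E2f8 also passed with DESeq2 (0.00685) and in a fit of the male libraries only (0.00757). An antisense transcript, Gm2788, overlaps E2f8, and no source used here says whether reads were counted by strand.

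E2f7, the partner repressor (chromosome 10, 110745439 to 110787384), was far scarcer, with 38 counts in all and 1 to 6 in each library. Summed over 4 libraries it had 8 counts in hCYP2B6-Tg females (exact 95% Poisson interval 3.45–15.8, counting error only) against 7 (2.81–14.4) in Cyp2b-null females, and 14 (7.65–23.5) in hCYP2B6-Tg males against 9 (4.12–17.1) in Cyp2b-null males. The intervals overlap within both sexes, and no difference in E2f7 was detectable at this depth.

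No other cell cycle gene among the 36 passed in any genotype comparison. Counts of members called were 0 of 26 in females and 0 of 26 in males, where 0% and 0.111% of all tested genes were called, and 0 of 26 for the mean of the sexes (0.0148% of all genes). At an unadjusted p under 0.05 there were 3 members in females (E2f8, Ccnd1 and Cdkn1a; 7.59% of all genes), 2 in males (E2f8 and Mcm4; 7.17%), 3 for the difference (E2f8, Ccnd1 and Mcm4; 7.7%) and 0 for the mean (6.94%). The median log2 fold change of the 26 was -0.16 in females, against 0.0016 over all tested genes, and 0.11 in males, against -0.0043. In DESeq2, 0 members were called in females, 0 for the mean of the sexes and 1, E2f8, in males.

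**Figure D2:**
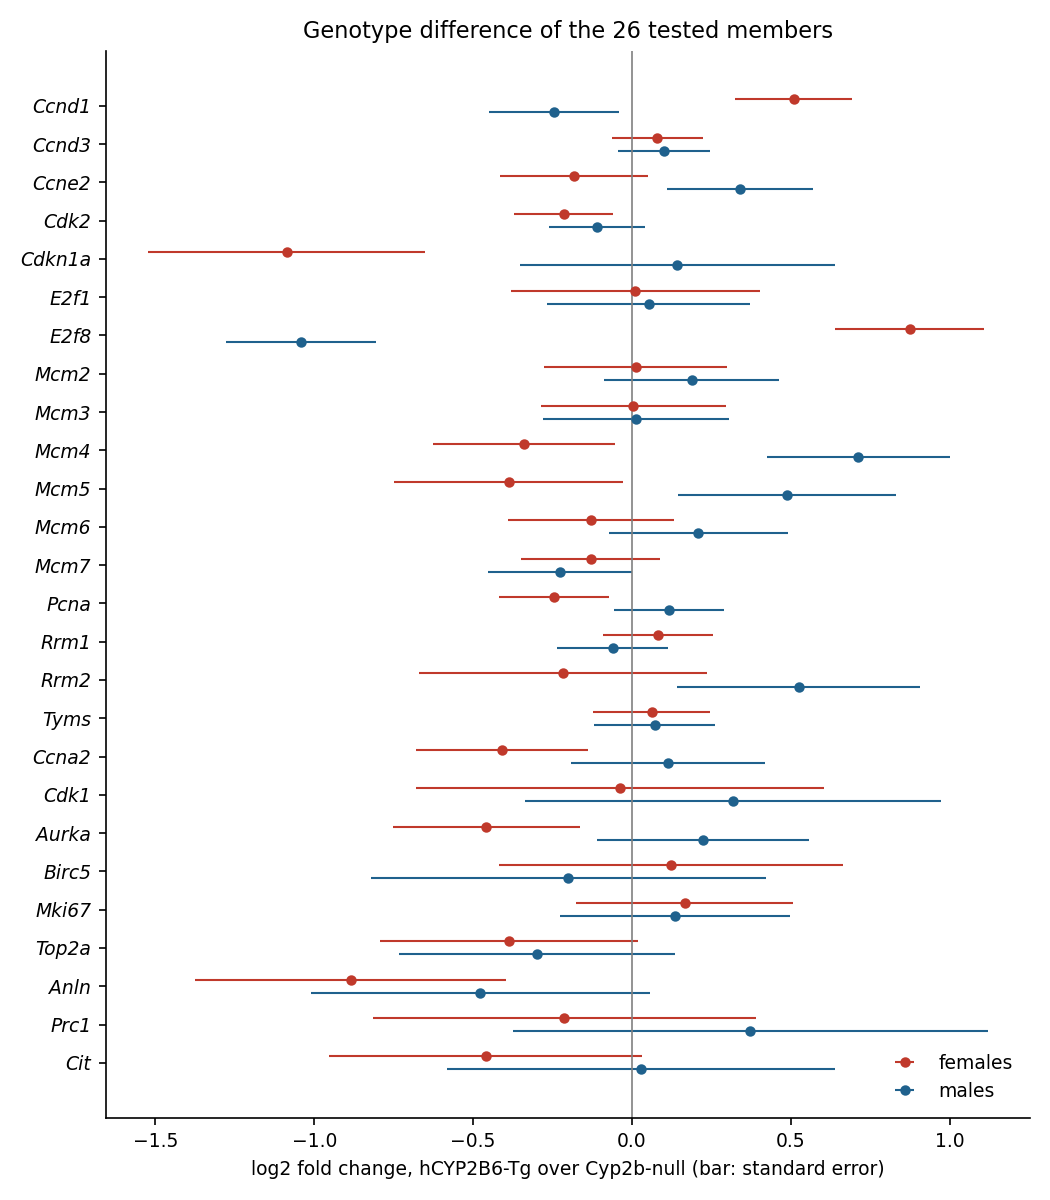
Log2 fold change of hCYP2B6-Tg over Cyp2b-null livers for each of the 26 tested genes (rows, grouped by role), in females and in males, with the standard error from edgeR as a bar. E2f8 stands at 0.87 in females and -1.04 in males, Ccnd1 at 0.51 in females and -0.25 in males, and most bars of the replication and mitotic genes cross 0.

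Among the G1/S genes, Ccnd1 (cyclin D1, the mitogen-responsive partner of CDK4 and CDK6) was at 156 ± 28.2 CPM in hCYP2B6-Tg females and 109 ± 13.4 CPM in Cyp2b-null females, a log2 fold change of 0.51 ± 0.18 that did not pass (adjusted p = 0.572). Cdkn1a, which encodes the p53-induced inhibitor p21, was at 1.41 ± 0.278 CPM in hCYP2B6-Tg females and 3.12 ± 1.84 CPM in Cyp2b-null females (-1.09 ± 0.44, adjusted p = 0.584). Cdk2, the S-phase kinase, had the smallest p of this list for the mean of the sexes. It was at 8.61, 7.10, 7.87 and 8.96 CPM in hCYP2B6-Tg females against 8.43, 11.8, 8.87 and 8.75 CPM in Cyp2b-null females, and at 9.93, 10.3, 9.23 and 9.62 CPM in hCYP2B6-Tg males against 8.49, 10.5, 11.5 and 11.4 CPM in Cyp2b-null males. The groups overlapped within both sexes, and the mean log2 fold change was -0.16 ± 0.11 (adjusted p = 0.804). Pmel overlaps Cdk2 on the other strand, with 144 counts against 1114.

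All 10 replication genes passed the filter, and none was called by genotype. Their median log2 fold change was -0.13 in females (4 of 10 positive) and 0.15 in males (8 of 10 positive), with median standard errors of 0.27 and 0.28. Mcm4, a subunit of the replicative helicase, was at 6.33 ± 2.01 CPM in hCYP2B6-Tg males and 3.90 ± 1.37 CPM in Cyp2b-null males (0.71 ± 0.29, adjusted p = 0.585). Pcna, at 10.5 ± 0.735 CPM in hCYP2B6-Tg females and 12.5 ± 1.72 CPM in Cyp2b-null females, differed by -0.25 ± 0.17 (adjusted p = 0.787).
Mcm7, another helicase subunit and the replication gene with the smallest p for the mean of the sexes, was at 6.86, 4.89, 4.84 and 5.50 CPM in hCYP2B6-Tg females against 5.79, 4.37, 5.64 and 7.92 CPM in Cyp2b-null females. In males Mcm7 was at 3.51, 5.85, 6.19 and 4.87 CPM in hCYP2B6-Tg against 4.88, 5.92, 5.55 and 7.63 CPM in Cyp2b-null livers. The groups overlapped in both sexes (-0.18 ± 0.16, adjusted p = 0.881), and Cops6, which overlaps Mcm7 on the other strand, had 10373 counts against 675.

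The mitotic genes likewise gave no call by genotype. Ccna2, cyclin A2, was at 4.44, 5.24, 4.24 and 3.97 CPM in hCYP2B6-Tg females, all below the 5.79, 5.77, 5.53 and 6.67 CPM of Cyp2b-null females, yet the log2 fold change of -0.41 ± 0.27 did not pass (adjusted p = 0.773). In males Ccna2 was at 0.916, 4.46, 5.07 and 4.99 CPM in hCYP2B6-Tg against 2.71, 3.03, 4.46 and 4.32 CPM in Cyp2b-null livers, overlapping. Exosc9 overlaps Ccna2 on the other strand, with 1550 counts against 541. Anln encodes anillin, a scaffold of the contractile ring whose loss raises hepatocyte ploidy in mice. It was at 1.08, 0.116, 0.606 and 1.41 CPM in hCYP2B6-Tg females against 1.40, 0.935, 1.38 and 1.98 CPM in Cyp2b-null females, and at 1.07, 0.769, 1.13 and 0.237 CPM in hCYP2B6-Tg males against 1.81, 0.825, 1.08 and 0.863 CPM in Cyp2b-null males. The groups overlapped in both sexes, and the mean log2 fold change was -0.68 ± 0.36 (adjusted p = 0.753). The proliferation marker Mki67 was at 4.12 ± 1.45 CPM in hCYP2B6-Tg females and 3.61 ± 1.10 CPM in Cyp2b-null females, and at 3.65 ± 1.89 CPM in hCYP2B6-Tg males and 3.43 ± 1.26 CPM in Cyp2b-null males. Topoisomerase Top2a differed by -0.34 ± 0.30 over the mean of the sexes (adjusted p = 0.878).

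Added over the 10 replication genes, the level was 60.1, 57.8, 56.5 and 60.9 CPM in hCYP2B6-Tg females and 60.6, 59.7, 61.5 and 69.0 CPM in Cyp2b-null females. In males the sums were 48.6, 81.7, 72.4 and 68.7 CPM in hCYP2B6-Tg and 59.6, 53.4, 64.3 and 68.5 CPM in Cyp2b-null livers. The widest spread was among hCYP2B6-Tg males, where male 2 was the lowest of its group for 9 of 10 replication genes. The 17 mitotic genes summed to 22.7 ± 5.39 CPM in hCYP2B6-Tg females, 26.4 ± 5.51 CPM in Cyp2b-null females, 19.999 ± 7.60 CPM in hCYP2B6-Tg males and 18.8 ± 4.19 CPM in Cyp2b-null males, and hCYP2B6-Tg male 2 was again the lowest, at 10.5 CPM. In bulk liver RNA, fewer dividing cells and less RNA per dividing cell cannot be told apart.

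**Figure D3:**
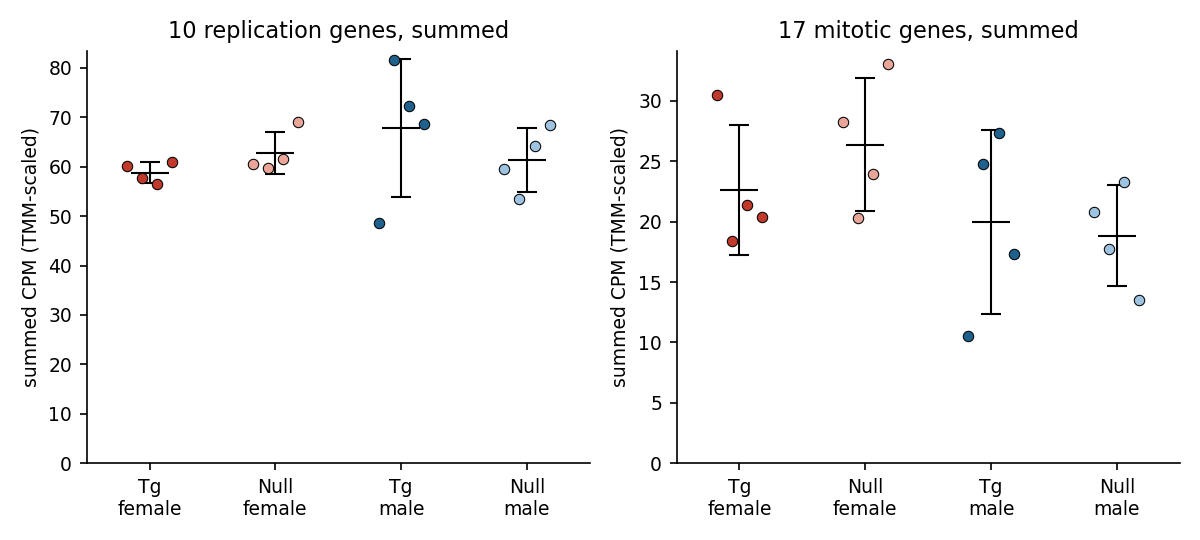
Summed level in CPM (linear vertical axes) of the 10 replication genes and of the 17 mitotic genes in each library, with the group mean (bar) and SD (whiskers); Tg is hCYP2B6-Tg and Null is Cyp2b-null. The ranges of the 4 groups overlap in both sums, and the replication sum spreads from 48.6 to 81.7 CPM among Tg males.

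Blood and immune cells can carry mitotic RNA. Of the T cell, neutrophil, fat and pancreas acinar markers 0 passed the filter, and the T cell markers summed to 3.18 ± 1.60 CPM in hCYP2B6-Tg females, 3.79 ± 0.735 CPM in Cyp2b-null females, 2.41 ± 0.531 CPM in hCYP2B6-Tg males and 2.26 ± 0.940 CPM in Cyp2b-null males. No marker of any list was called by genotype. The 6 macrophage and Kupffer cell markers summed to 311 ± 25.4 CPM in hCYP2B6-Tg females, 354 ± 81.5 CPM in Cyp2b-null females, 243 ± 14.7 CPM in hCYP2B6-Tg males and 227 ± 31.1 CPM in Cyp2b-null males. The 6 B and plasma cell markers summed highest in Cyp2b-null female 3 (21.7 CPM) and Cyp2b-null male 4 (15.4 CPM). The next was Cyp2b-null male 1 at 9.21 CPM. Jchain held 97 of 139 and 72 of 107 counts in the highest 2. Cyp2b-null male 4 stood apart in the sums of 5 cholangiocyte markers (56.7 CPM) and of 4 acinar markers (22.9 CPM). Its acinar sum was Ctrb1 alone (159 counts), as Cpa1, Pnlip and Clps had 0 counts in all 16 libraries. Of its 394 cholangiocyte counts Krt19 held 270. Epcam, Krt7 and Cftr were also highest in this library, and Sox9 was not. Acta2, a stellate cell and fibroblast marker, was highest there as well, at 78 counts, but the sum of its list was not. The part of these cells in the results was not tested.

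By sex, the largest difference among the 26 genes was that of Ccnd1. In hCYP2B6-Tg livers 2 of 26 members were called (10.3% of all genes were) and in Cyp2b-null livers 2 of 26 (7.52% of all genes), each time Ccnd1 and E2f8. Over the mean of the genotypes 2 of 26 were called, Ccnd1 and E2f1, where 17% of all genes were. These shares are near the background or below it. Without hCYP2B6-Tg male 2, 4 members were called in hCYP2B6-Tg livers, with E2f1 and Rrm2 added. The median log2 fold change of the 26, females over males, was 0.03 in hCYP2B6-Tg livers and 0.13 in Cyp2b-null livers.

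Ccnd1 (chromosome 7, 144929931 to 144939831) was higher in every female than in every male library. Its levels were 148, 162, 122 and 190.3 CPM in hCYP2B6-Tg females and 103, 94.8, 114 and 125 CPM in Cyp2b-null females. Males had 25.96, 29.7, 29.8 and 30.4 CPM in hCYP2B6-Tg livers and 26.2, 27.2, 53.6 and 29.9 CPM in Cyp2b-null livers, where male 3 stood above the others. The log2 fold change of females over males was 2.42 ± 0.20 in hCYP2B6-Tg (edgeR, adjusted p = 8.11e-07) and 1.67 ± 0.20 in Cyp2b-null livers (adjusted p = 3.95e-05), and 2.05 ± 0.14 on average. The difference between these sex effects equals that between the genotype effects, 0.76 ± 0.28, which did not pass (adjusted p = 0.531). Ccnd3, another D-type cyclin, was not called by sex, at 28.6 ± 6.29 CPM in hCYP2B6-Tg females and 26.8 ± 0.892 CPM in hCYP2B6-Tg males. Oraov1 overlaps Ccnd1 on the other strand, with 5214 counts against 10001.

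E2f8 was higher in females than in males in hCYP2B6-Tg livers (1.01 ± 0.24, adjusted p = 0.00886), where the sexes did not overlap, and lower in Cyp2b-null livers (-0.91 ± 0.24, adjusted p = 0.0213), where Cyp2b-null female 1 lay among the males. Both come from the 16 values given above, so they are not independent of the genotype contrasts. The Cyp2b-null call was lost without any 1 of 6 libraries, Cyp2b-null females 3, 4 and 5 and Cyp2b-null males 2, 3 and 4 (adjusted p up to 0.0730), with no filter (0.0549) and in a fit of the Cyp2b-null libraries only (0.0683). The edgeR fit with the replicate number as a block lost it too (adjusted p = 0.105). Averaged over genotypes E2f8 differed by 0.05 ± 0.17.

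E2f1 (chromosome 2, 154559400 to 154569892), the activator of replication genes, was lower in females over the mean of the genotypes (-0.83 ± 0.25, adjusted p = 0.0229). It was at 2.29, 1.86, 2.57 and 2.94 CPM in hCYP2B6-Tg females against 1.83, 3.54, 7.32 and 4.04 CPM in hCYP2B6-Tg males. In Cyp2b-null livers it was at 1.40, 2.81, 1.38 and 3.65 CPM in females against 3.07, 4.13, 4.46 and 4.89 CPM in males. The sexes overlapped in both genotypes, and neither genotype passed alone (adjusted p = 0.133 in hCYP2B6-Tg and 0.198 in Cyp2b-null livers). The call rests on few counts, 394 in all, and it was lost without hCYP2B6-Tg female 2 (0.0508), Cyp2b-null female 4 (0.0559) or hCYP2B6-Tg male 4 (0.0820). Without Cyp2b-null females 1 and 3 and hCYP2B6-Tg male 4 together it was lost as well (-0.56, edgeR, adjusted p = 0.158).

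**Figure D4:**
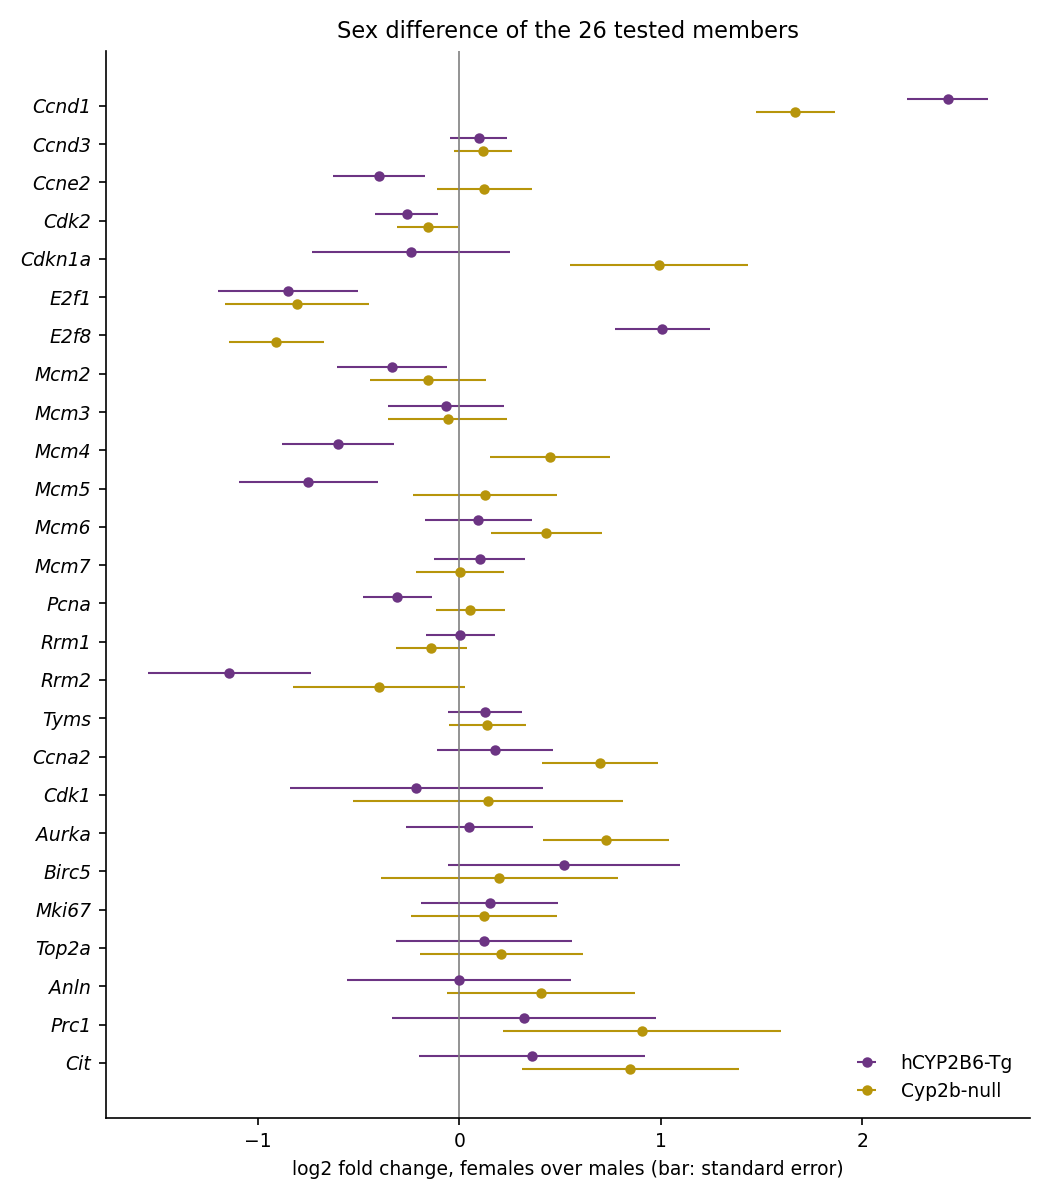
Log2 fold change of females over males for each of the 26 tested genes (rows, grouped by role), in hCYP2B6-Tg and in Cyp2b-null livers, with the standard error from edgeR as a bar. Ccnd1 stands far to the right at 2.42 in hCYP2B6-Tg and 1.67 in Cyp2b-null livers, and E2f8 lies on opposite sides of 0, at 1.01 in hCYP2B6-Tg and -0.91 in Cyp2b-null livers.

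No replication gene was called by sex with all 16 libraries. Rrm2, a subunit of ribonucleotide reductase and the replication gene with the smallest p, was at 4.03, 2.45, 3.18 and 0.896 CPM in hCYP2B6-Tg females against 2.75, 6.77, 4.28 and 9.02 CPM in hCYP2B6-Tg males. Cyp2b-null livers had 1.40, 3.59, 2.42 and 4.27 CPM in females against 2.71, 5.78, 2.57 and 4.75 CPM in males. The sexes overlapped in both genotypes (-0.77 ± 0.30 on average, adjusted p = 0.0830). No mitotic gene was called by sex. All 4 tested kinase, cyclin and checkpoint genes and all 5 tested spindle, chromosome and cytokinesis genes had a positive log2 fold change, females over males, in Cyp2b-null livers, with medians of 0.45 and 0.41 against 0.0046 over all tested genes, while 6 of 10 replication genes were positive (median 0.03). Of all 13470 tested genes 6828 were positive. The mitotic genes share libraries, so their signs are not independent. Cyp2b-null female 5 was the highest of its group for 6 of 9 tested mitotic genes, and Cyp2b-null male 4 the lowest for 5. The summed mitotic levels overlapped, at 20.3 to 33.0 CPM in Cyp2b-null females and 13.5 to 23.3 CPM in Cyp2b-null males. In hCYP2B6-Tg livers 3 of 4 kinase, cyclin and checkpoint genes and 4 of 5 spindle, chromosome and cytokinesis genes were positive, with medians of 0.11 and 0.15 against 0.016 over all tested genes, and 4 of 10 replication genes (median -0.19). Ccna2 had values in Cyp2b-null females, given above, that were all higher than in Cyp2b-null males (0.70 ± 0.29, edgeR, adjusted p = 0.157). Over the mean of the genotypes Ccna2 differed by 0.44 ± 0.20 (adjusted p = 0.152). Cit encodes citron kinase, which acts at abscission and whose loss also leaves binucleate cells in mice. In hCYP2B6-Tg livers it was at 1.61, 0.233, 0.757 and 1.54 CPM in females against 1.53, 0.154, 0.675 and 0.831 CPM in males. The Cyp2b-null values were 0.702, 1.40, 2.19 and 1.15 CPM in females against 1.26, 0.825, 0.541 and 0.576 CPM in males. The ranges overlapped, and the mean sex difference was 0.60 ± 0.39 (adjusted p = 0.322).

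Markers of other cells also differed by sex, over the mean of the genotypes, where 17% of all tested genes were called. The Kupffer cell markers Vsig4 (0.74 ± 0.09), Csf1r (0.49 ± 0.11) and Clec4f (0.45 ± 0.08) were higher in females, as 3 of 6 tested macrophage markers. The B cell marker Cd79b, the 1 called of 2 tested B and plasma cell markers, was higher too. So was Dcn, the 1 called of 4 tested stellate cell and fibroblast markers. Alas2, the erythroid heme synthesis enzyme, was lower (-2.69 ± 0.08), the 1 called of 4 tested erythroid markers, whose median was -0.20 and highest value 0.40. The part of such cells in the sex differences of the cell cycle genes was not tested.

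The genes below the filter held 500 counts together. These 10 were Ccne1, E2f7, Ccnb1, Ccnb2, Aurkb, Plk1, Bub1, Bub1b, Cenpf and Kif11. Ccne1, cyclin E1, had 16 counts in hCYP2B6-Tg females against 7 in Cyp2b-null females, and 32 in hCYP2B6-Tg males against 12 in Cyp2b-null males. Bub1b, a checkpoint kinase, had 34 counts in hCYP2B6-Tg females against 19 in Cyp2b-null females, and 21 in hCYP2B6-Tg males against 17 in Cyp2b-null males. Cenpf, a kinetochore protein of G2 and mitosis, had 18 counts in hCYP2B6-Tg females against 28 in Cyp2b-null females, and 22 in hCYP2B6-Tg males against 10 in Cyp2b-null males. In an edgeR fit of 25553 genes without the filter, 0 of these genes passed in any comparison (lowest adjusted p = 0.325), and 2 of 63 tests, both of Ccne1, had an unadjusted p under 0.05.

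The wider cell cycle gave no call by genotype either. Lists of 147 further genes, taken from textbook groups of E2F, RB and DREAM regulators, G1 cyclins and inhibitors, replication, mitosis, cytokinesis and the p53 pathway, had 104 tested genes, of which 0 passed in any genotype comparison. At an unadjusted p under 0.05 there were 11 in females, 7 in males, 10 for the difference and 10 for the mean of the sexes, against 7.59%, 7.17%, 7.7% and 6.94% of all tested genes, so these counts are near the background. Over the mean of the genotypes 8 of 104 differed by sex, 4 higher and 4 lower in females, where 17% of all tested genes were called, a larger share. Of the 8, none was an E2F, RB or DREAM regulator (0 of 14) or a cytokinesis gene (0 of 7).

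Among the replication genes, Mcm10, a helicase activator, was lower in females, while none of the helicase subunits Mcm2 to Mcm7 was called. Its level was 21.4, 34.1, 34.2 and 36.5 CPM in hCYP2B6-Tg females against 90.1, 112, 75.8 and 105 CPM in hCYP2B6-Tg males, and 23.5, 34.5, 31.4 and 25.8 CPM in Cyp2b-null females against 80.0, 102, 92.8 and 113 CPM in Cyp2b-null males. The sexes did not overlap in either genotype (-1.68 ± 0.12, edgeR, adjusted p = 7.03e-09). Gins4, a subunit of the helicase complex, was lower (-0.38 ± 0.11, adjusted p = 0.0190). Tk1, thymidine kinase, was higher (0.55 ± 0.14, adjusted p = 0.00859), though Afmid overlaps Tk1 on the other strand with 15269 counts against 2639. In neither genotype alone did Gins4 pass (0.118 in hCYP2B6-Tg and 0.183 in Cyp2b-null livers), nor did Tk1 (0.0810 and 0.106).

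The inhibitors Cdkn2c (p18, 1.02 ± 0.14, adjusted p = 9.39e-06) and Cdkn1c (p57, 1.28 ± 0.23, adjusted p = 0.000341) were higher in females. Cdkn2c was at 6.32, 6.87, 8.02 and 5.76 CPM in hCYP2B6-Tg females against 2.90, 2.77, 3.04 and 2.49 CPM in hCYP2B6-Tg males, and at 6.15, 9.51, 7.94 and 6.56 CPM in Cyp2b-null females against 3.97, 4.40, 4.60 and 4.32 CPM in Cyp2b-null males. Its sexes did not overlap in either genotype. Wee1, the kinase that holds CDK1 inactive before mitosis, was lower in females (-1.01 ± 0.20, adjusted p = 0.00173). Its level was 10.2 ± 3.02 CPM in hCYP2B6-Tg females against 22.1 ± 3.92 CPM in hCYP2B6-Tg males, and 6.64 ± 3.68 CPM in Cyp2b-null females against 12.2 ± 3.20 CPM in Cyp2b-null males. By genotype Wee1 had a log2 fold change of 0.73 ± 0.20 over the mean of the sexes, which did not pass (adjusted p = 0.406). As for E2f8, the male genotype groups did not overlap for Wee1 (hCYP2B6-Tg higher) or Cdkn2c (hCYP2B6-Tg lower). In males neither passed by genotype (edgeR, adjusted p = 0.411 and 0.512). The share of all tested genes that separate in this way was not counted. The kinetochore gene Spc24 was lower in females (-0.59 ± 0.13, adjusted p = 0.00252). It passed in hCYP2B6-Tg livers (-0.93, adjusted p = 0.00160) but not in Cyp2b-null livers (-0.24, 0.512), where the sexes overlapped. Wee1, too, passed by sex in hCYP2B6-Tg livers (0.0107) and not in Cyp2b-null livers (0.0837). Sesn2, a p53 target of the stress response, was higher in females (0.55 ± 0.16, adjusted p = 0.0222), and neither genotype passed alone (0.124 in hCYP2B6-Tg and 0.201 in Cyp2b-null livers). The Sesn2 call was lost without Cyp2b-null female 4 (0.0625), hCYP2B6-Tg male 5 (0.0527) or Cyp2b-null male 4 (0.0553).

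**Figure D5:**
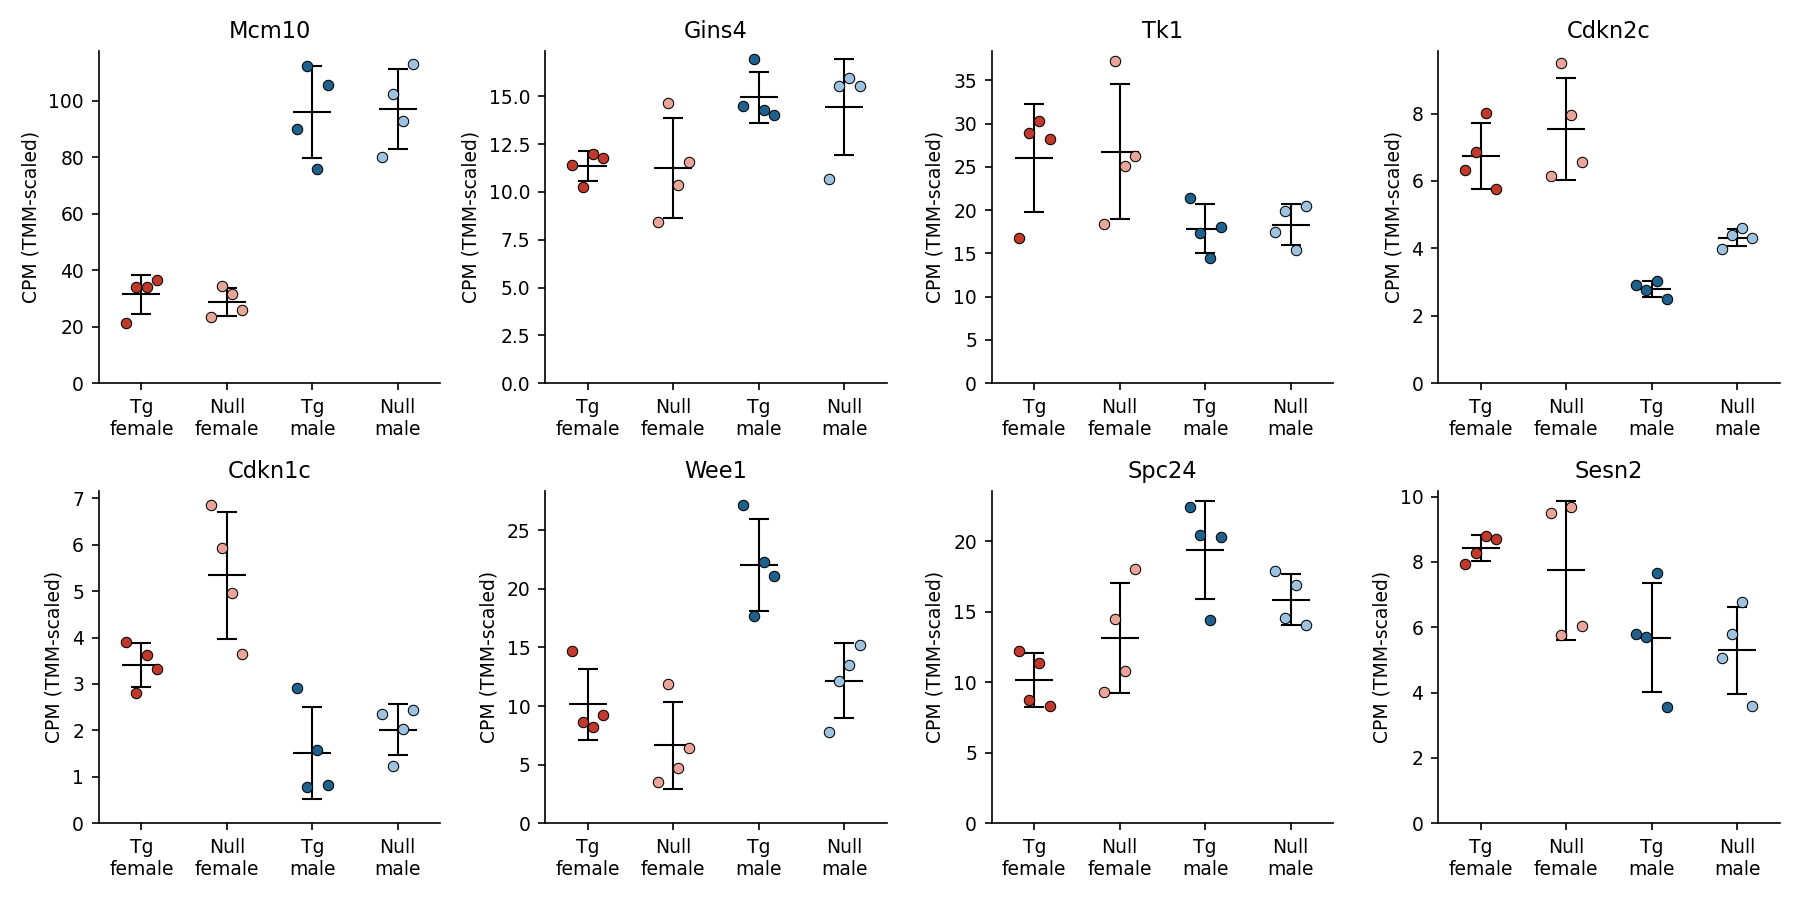
Levels in CPM (linear vertical axes) of the 8 wider cell cycle genes called between females and males, in each of 4 libraries per group with the mean (bar) and SD (whiskers); Tg is hCYP2B6-Tg and Null is Cyp2b-null. Mcm10 lies between 21.4 and 36.5 CPM in females and between 75.8 and 113 CPM in males, and Cdkn2c lies higher in every female than in every male library.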

How the data were processed

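The authors deposited whole-number read counts per gene symbol and library; per the submitters' processing notes the tools were GSNAP, Subread, Trimmomatic, FastQC and edgeR (no versions) and the build was GRCm38.p6. No source used here gives the strand or multiple-mapping settings. Groups and replicate numbers were read from the sample titles.

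All 16 libraries in 4 groups entered 1 fit (R 4.3.3, edgeR 4.0.16: filterByExpr, TMM scaling, robust quasi-likelihood test with legacy = FALSE, two-sided), with Benjamini-Hochberg adjustment over 13470 genes and a threshold of 0.05. The legacy setting was chosen because it gives the counts of calls of an earlier analysis of these data. Each standard error was derived from a fold change and its F value. The 7 comparisons share libraries. Two-sided alternatives used DESeq2 1.42.0, limma 3.58.1 and other scalings, filters and libraries. The procedure was run on simulated data in which chosen genes were raised in hCYP2B6-Tg males only, with no other group differences. Such data do not hold the opposite shifts seen for E2f8, and no conclusion is drawn from them. No libraries of a group looked like copies (chi-square per degree of freedom 6.53 to 19.7), and 3 empty columns were left out. Lengths are merged exons of GENCODE; positions and promoters are RefSeq's.

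The members and lists were chosen with earlier results of these data known. Named in full are E2f7, E2f8, each member past the threshold, and per role list the smallest p by genotype and by sex; of the wider lists, up to 3 genes each past the threshold. Mcm4, Cdkn1a, Pcna, Mki67, Top2a, Ccnd3, Ccne1, Bub1b and Cenpf were added after their values were seen.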

Additional observations from a re-analysis of the deposited data

Results flagged for a closer look

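In 20 named quantities 80 groups of 4 libraries were examined for 1 library far from the other 3, and 11 were found; chance flags about 1 in 20 groups. For E2f8 these were hCYP2B6-Tg female 1 at 14.3 CPM, with the next at 21.9, and Cyp2b-null male 1 at 15.7 CPM, with the next at 21.9. For Ccnd1, hCYP2B6-Tg male 2 was low at 25.96 CPM and Cyp2b-null male 3 high at 53.6 CPM. Ccna2 was low in hCYP2B6-Tg male 2 at 0.916 CPM, and Cdk2 was high in Cyp2b-null female 3 at 11.8 CPM. In hCYP2B6-Tg female 1, Mcm10 (21.4 CPM) and Tk1 (16.8 CPM) were low and Wee1 (14.7 CPM) was high. Gins4 was high in hCYP2B6-Tg male 3 at 16.9 CPM and low in Cyp2b-null male 1 at 10.7 CPM.

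The genotype effect on E2f8 differed between the sexes, by 1.92 on the log2 scale (females minus males; interaction test of the edgeR fit, adjusted p = 0.0445).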

How the results depend on the processing

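Counts of called genes are over the 26 tested. By genotype in females the count was 0, and 0 to 1 on leaving out 1 library. In males it was 0 (0 to 1), and 1, E2f8, with DESeq2, with the male libraries only, and without Cyp2b-null females 1 and 3 and hCYP2B6-Tg male 4 together, which an earlier analysis had left out. For the difference between the sexes it was 1 (0 to 1), and 0 with library totals only, no filter, the replicate block or the earlier quasi-likelihood method. By sex it was 2 in Cyp2b-null livers (1 to 3; 1 with no filter, with the Cyp2b-null libraries only and with the replicate block), 2 in hCYP2B6-Tg livers (2 to 4) and 2 on average (1 to 3; 1 without those 3 libraries). With no filter 1 member, Kif11, stayed untested in place of 10.

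Small effects changed sign. The mean genotype effect of E2f8 (-0.084) became 0.13 without the 3 libraries and ran from -0.18 to 0.085 (0.085 without Cyp2b-null female 1) on leaving out 1 library. Its mean sex effect (0.050) became -0.020 with limma voom and -0.16 without the 3 libraries, and ran from -0.12 to 0.15 on leaving out 1 (below 0 without Cyp2b-null female 1, hCYP2B6-Tg male 3 or Cyp2b-null male 1). The genotype effect on Ccnd1 in males (-0.25) ran from -0.34 to 0.064 on leaving out 1 (0.064 without Cyp2b-null male 3). The cause was not tested.

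The labels give the groups replicate numbers and do not say what a shared number means. Of 12 same-number correlations of deviations 1 was over 0.1 (-0.107 to 0.122). They were not set against a reference, so they cannot tell whether samples share more than a number. With the replicate block, E2f8 in the difference was 1.85 (adjusted p = 0.201). Depth limits the genes with few counts most.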
